A study of Mus musculus with 29 samples.

Results

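Border-associated macrophages of the mouse brain were measured by Drop-seq, a droplet method that counts transcript molecules cell by cell, and the cells described here are those that the authors' annotation calls BAM and, at its finer level, BAM1. This rule gave 548 BAM1 cells among 1453 BAM cells and 55268 brain cells, 442 from young and 106 from aged mice. Mice had stroke surgery, in which the middle cerebral artery was blocked for a time, or sham surgery. All were C57BL/6J with no transgene named in the labels. Young males aged 8 to 10 weeks gave 4 sham libraries taken at day 2, and 4 libraries each from stroke day 2 and stroke day 14. Mice aged 17 to 20 months gave 1 male and 1 female sham library taken at day 2, 1 male and 2 female stroke day 2 libraries, and 1 female stroke day 14 library. Each library pooled 4 to 5 hemispheres, digested with papain in the presence of the transcription inhibitor actinomycin D, and was sorted for leukocytes, microglia and endothelial cells, so shares of cells depend on the sort. Since no sham library is from day 14, stroke and time since surgery cannot be told apart at day 14.

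Border-associated macrophages sit at the meninges, the perivascular spaces and the choroid plexus, where they sample fluid and take up debris. They are known by the mannose receptor Mrc1, the chemokine Pf4 and scavenger receptors such as Cd163, Lyve1 and Stab1. MHC class II molecules, which present peptides to CD4 T cells, differ among these macrophages: cells rich in Lyve1 are known to hold little of them, and other border macrophages hold much.

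BAM1 carried the border macrophage programme at a high level. Levels are given as CPM, a gene's count in the summed BAM1 cells of a library scaled to a total of 1000000 counts over all genes. Over the 12 young libraries, Mrc1 was at 4716 ± 2489 CPM (mean ± SD, n = 12) and Pf4 at 4167 ± 2146 CPM. The scavenger receptor Stab1 was at 1465 ± 832, the coagulation factor subunit F13a1 at 1625 ± 762, the carbonyl reductase Cbr2 at 1472 ± 631 and the hyaluronan receptor Lyve1 at 841 ± 759 CPM. All 9 markers of the border macrophage list were detected, among them Mrc1 and Pf4, which define the label. The list's sum was at 12182 to 24810.1 CPM in 11 young libraries and at 3549 in sham library 4, where Mrc1 (1328 CPM) and Pf4 (346 CPM) rest on 1.9 and 0.5 counts in 8 cells. Markers of other cells were near 0 in the pooled young BAM1 cells: the summed NK cell list was at 0, the T cell list at 4.77 CPM with Cd3e, Cd3g and Trac at 0, and the endothelial list at 22.95 CPM with Cldn5 and Cdh5 at 0. The neutrophil list summed to 65.6 CPM with S100a8, Retnlg and Cxcr2 at 0, the dendritic cell list to 76.3 with Flt3, Xcr1 and Ccr7 at 0, and the monocyte list to 48.9 with Vcan at 0. The B cell, mural, fibroblast, choroid plexus, oligodendrocyte, astrocyte and erythroid lists summed to 0 to 34.4 CPM. The microglial list was present, at 1518 CPM against 17728 CPM in microglia. It ranged from 914 to 1898 in sham, 179 to 3038 in stroke day 2 and 502 to 1856 in stroke day 14.

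Against BAM2, BAM1 held more of the border macrophage markers and less of Ccr2, Il1b and the MHC class II genes. The subtypes were cut from the same expression values, so these differences are descriptions with no test. Mrc1, Pf4 and Stab1 were higher in BAM1 than in BAM2 in 12 of 12 young libraries, and Lyve1 was at 11.996 ± 32.3 CPM in BAM2. The chemokine Ccl24, the adhesion molecule Vcam1 and the growth factor Gas6 were at 570.0, 528 and 577 CPM in BAM1 and at 12.5, 16.5 and 35.4 CPM in BAM2. In the other direction, the monocyte chemokine receptor Ccr2 was at 19.95 ± 62.3 CPM in BAM1 and 1799 ± 991 in BAM2, and the cytokine Il1b at 449 against 7441 CPM. The MHC class II beta chain gene H2-Ab1 was at 1004 ± 1561 CPM in BAM1 and 15699 ± 3571 in BAM2, and its invariant chain Cd74 at 2799 ± 4139.6 against 28114 ± 7491 CPM. Both were lower in BAM1 in 12 of 12 libraries.

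BAM1, BAM3 and BAM4 had close means of Mrc1 and Pf4. Levels are set side by side here over the libraries with at least 5 cells of both subtypes, since BAM3, BAM4 and BAM5 come from part of the libraries. Mrc1 was at 5586 CPM in BAM1 and 4529 ± 2226 in BAM3 (n = 8 libraries), and at 3557 in BAM1 and 3983 ± 3015 in BAM4 (n = 5). Pf4 was at 4724 CPM in BAM1 and 4661 ± 2328 in BAM3, and at 4057 in BAM1 and 5669.8 ± 1468 in BAM4. BAM3 cells were the shallowest, with a median of 314 counts per cell against 763 in BAM1 and 805 in BAM4. Among genes that averaged 500 CPM or more in either subtype over all its libraries, a level chosen after the values were seen, those higher in BAM1 than in BAM3 included the activation marker Cd83 (442 against 105 CPM), the transcription factors Fosb (675 against 175) and Atf3 (859 against 179), and the antiproliferative gene Btg2 (1133 against 325). Btg2 was higher in BAM1 in 8 of 8 libraries. In the other direction, the respiratory chain subunit Ndufc1 was at 166 CPM in BAM1 and 503 in BAM3. Against BAM4, a subtype with 86.5% of its young cells from stroke day 2, BAM1 held less of the glycolytic enzyme Pkm (195 against 634 CPM), the haem oxygenase Hmox1 (211 against 717) and the galectin Lgals1 (1279 against 3346). Against BAM5, it held less of the galectin Lgals3 (24.4 against 1177 CPM) and of Il1b (547 against 5609). Lgals3 and the annexin Anxa2 had a lower mean in BAM1 than in each other subtype, at 39.9 ± 46.4 and 21.01 ± 34.9 CPM (n = 12), also within the libraries shared with each.

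**Figure D1:**
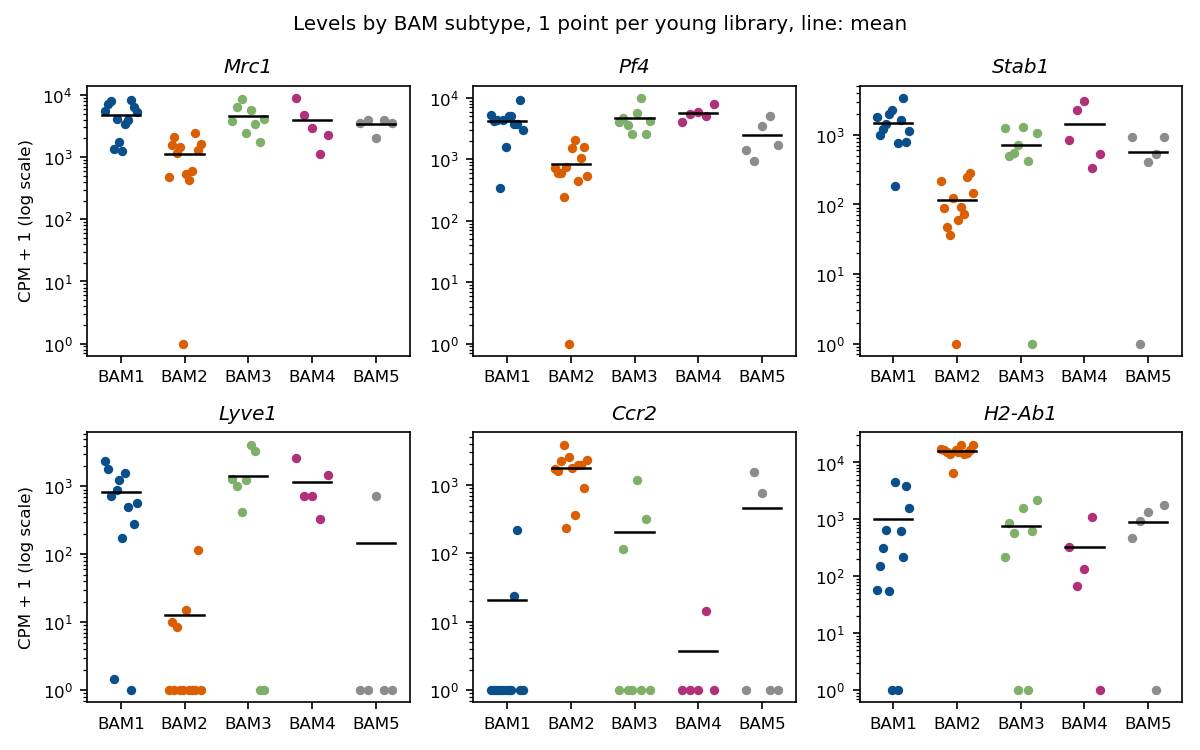
Level of 6 genes in each BAM subtype of the young libraries (CPM + 1, log scale; 1 point per library with at least 5 cells of the subtype, line at the mean; 12 libraries for BAM1 and BAM2, 8 for BAM3, 5 for BAM4 and 5 for BAM5). Mrc1, Pf4, Stab1 and Lyve1 are high in BAM1 and low in BAM2, and Ccr2 and H2-Ab1 the reverse.

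BAM1 was the largest BAM subtype in 3 of 4 sham libraries, and no difference in its share between groups passed the test. BAM1 made up 49.5%, 50%, 44.5% and 15.4% of BAM cells in sham libraries 1 to 4. The values at stroke day 2 were 22.4%, 19.4%, 7.37% and 42.9%. At stroke day 14 they were 40.3%, 30%, 34.6% and 27.7%. The groups overlap: sham library 4 lies with the 3 lowest day 2 libraries, and day 2 library 4 lies with the other sham libraries. The mean was 39.9% ± 16.5 (SD, n = 4) in sham, 23.01% ± 14.7 (n = 4) at day 2 and 33.1% ± 5.55 (n = 4) at day 14. Exact two-sided permutation tests gave p = 0.2 for day 2 against sham, 0.457 for day 14 against sham and 0.257 between the stroke times. Adjusted over the 6 share comparisons, p was 0.386 to 0.971, where 4 against 4 libraries can reach 0.0286 before adjustment. Within the libraries of low mitochondrial percent (described below) the mean share was 49.5% in sham (n = 1), 20.9% at day 2 (n = 2) and 35.1% at day 14 (n = 2), and within those of high percent 36.6% (n = 3), 25.1% (n = 2) and 31.2% (n = 2). Sham lay highest in both. Without day 2 library 4, the stroke times did not overlap, with day 14 higher by 16.8 percentage points (exact permutation p = 0.0286). That library is what made them overlap, so leaving it out fixed p at the smallest value the test can give. This p is not adjusted.

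As a share of all sorted brain cells, BAM1 was 1.72% ± 1.17 in sham, 0.607% ± 0.755 at day 2 and 0.573% ± 0.364 at day 14 (SD, n = 4 each; exact permutation p = 0.2, 0.143 and 0.971, the last between the stroke times). Sham library 4 was again the lowest sham value, at 0.210% against 1.53% to 2.99% in the others. Without it the day 14 and sham libraries did not overlap, with a difference of -1.64 percentage points (exact permutation p = 0.0286). Here too the library left out is what made the groups overlap, and p is unadjusted and at the smallest value possible. In aged mice, BAM1 was 38.5% of 13 BAM cells in the male sham library and 43.8% of 96 in the female. It was 30.95% of 42, 40% of 55 and 0 of 6 BAM cells in the stroke day 2 libraries, and 28.9% of 83 in the stroke day 14 library.

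**Figure D2:**
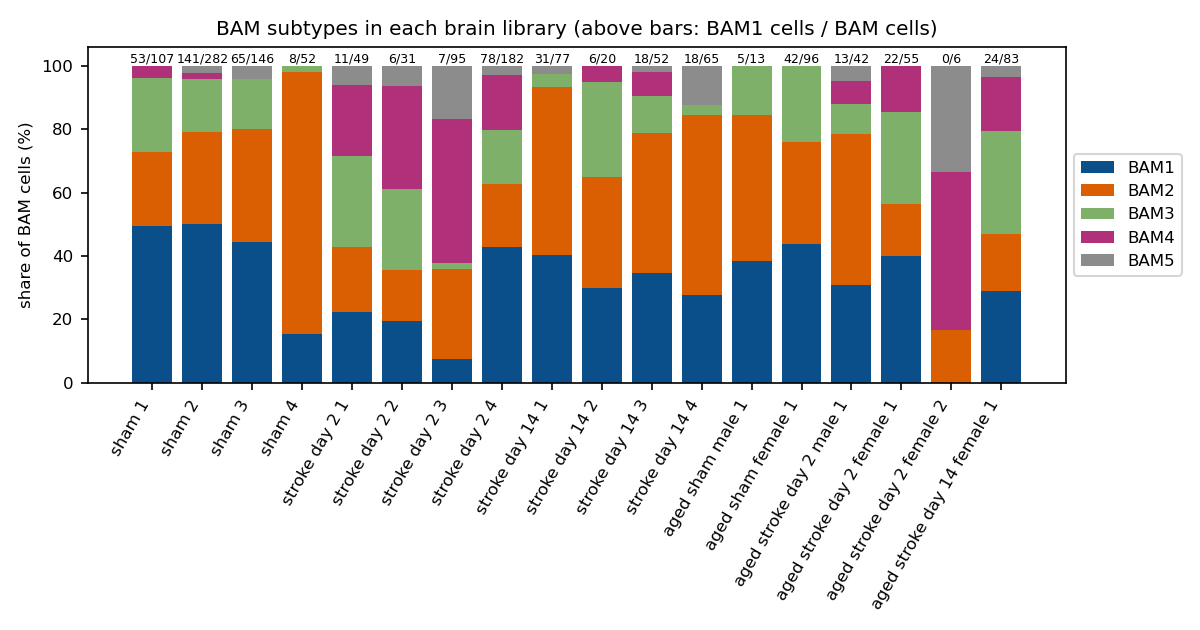
Share of each BAM subtype among the BAM cells of every brain library (%, stacked to 100; above each bar the number of BAM1 cells over the number of BAM cells). BAM1 ranges from 7.37% to 50% in the young libraries, and sham library 4 stands apart from the other 3 sham libraries.

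Libraries differed in depth and in how far the deposited counts lay from whole numbers. The BAM1 cells of a young library held 1393 to 119274 counts in all. A library's BAM1 total lay 2.01% to 67.9% below the same values rounded up per cell, and sham library 4, stroke day 2 library 3 and stroke day 14 libraries 3 and 4 lay 35.97% or more below. The median mitochondrial percent over all cells was under 1% in 5 young libraries (sham 1, stroke day 2 libraries 1 and 2, stroke day 14 libraries 1 and 2) and over it in the other 7. No BAM1 barcode was shared with another library. Libraries with at least 10 BAM1 cells entered the expression fits: sham 1, 2 and 3, stroke day 2 libraries 1 and 4, and stroke day 14 libraries 1, 3 and 4, with 11 to 141 BAM1 cells each. A gene was tested where it reached 253 CPM in at least 2 of these 8 libraries. Of the 908 genes tested, 161 would not pass without the day 14 libraries, 99 without the day 2 libraries and 136 without the sham libraries, so passing fixed their direction in part. Among the genes named below, this holds for H2-Aa, H2-Ab1, H2-Eb1, Cxcl16, Ighm, Nlrp3, Nrros, Rabgef1 and Tpm3-rs7 (day 14), Atp6v0d1, Fxyd5, Ppib, Saa3 and Slfn5 (day 2), and Cp, Cd209f, Colec12, Erbin, Prrc2c, Slfn5 and Tpm3-rs7 (sham).

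MHC class II genes stood above sham in BAM1 at stroke day 14, though the test within BAM1 did not pass. H2-Aa and H2-Eb1, chains of the I-A and I-E molecules, both carry upstream of their start the X and Y boxes for which this gene family is known, bound by RFX and NF-Y and needed for the coactivator Ciita. In mouse promoters of the RefSeq table (GRCm38.p6, 250 bases before to 50 after the start; 2 of the 4 genes H2-Aa, H2-Ab1, H2-Eb1 and Cd74 matched by symbol), 2 letter runs were sought on both strands, GCAACT from the X box and CTGATTGG, which holds the reversed CCAAT of the Y box. They are shown in capitals below, on the strand of the gene, because both genes had high day 14 levels in BAM1.
H2-Aa, chr17:34287847-34287924, minus strand: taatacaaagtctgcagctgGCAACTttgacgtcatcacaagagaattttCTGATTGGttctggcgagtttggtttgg
H2-Eb1, chr17:34305756-34305832, plus strand: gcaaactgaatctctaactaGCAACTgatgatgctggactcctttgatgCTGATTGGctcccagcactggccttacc
The X run begins 81 and 91 bases before the start of H2-Aa and H2-Eb1, and 24 and 23 bases lie between the runs. Of the 32851 promoters in the table, 4.10% hold CTGATTGG, 10.9% hold GCAACT and 0.466% hold both, on either strand. The runs do not overlap in these 2 promoters, and a match is not a measured binding site.

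In BAM1, H2-Aa was at 57.7, 90.2 and 225 CPM in sham libraries 1, 2 and 3, at 56.3 and 90.1 CPM in stroke day 2 libraries 1 and 4, and at 781, 4615 and 876 CPM in stroke day 14 libraries 1, 3 and 4. Every day 14 library lay above every sham and day 2 library of the fit, and library 3 was the highest. Day 14 lay wholly above sham for 5.73% of all tested genes. H2-Aa, H2-Ab1 and H2-Eb1 passed the filter only through day 14, which fixed this order in part. The share over all genes is therefore no measure for them. H2-Eb1 was at 96.2, 50.99 and 25.5 CPM in sham, 0 and 44.6 at day 2 and 260.4, 2830.4 and 856 at day 14, again with no overlap. H2-Ab1, the I-A beta chain, was at 57.6, 151 and 310.3 CPM in sham, 54.7 and 0.0130 at day 2 and 630.3, 3881 and 1567 at day 14. For Cd74, the invariant chain, the values were 946, 582 and 751 CPM in sham, 171 and 628 at day 2 and 2037, 13037 and 2615 at day 14. As for H2-Aa, day 14 lay above both other groups, and library 3 was the highest.

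The fitted log2 difference of day 14 over sham was 4.19 ± 0.74 (SE) for H2-Aa, 4.34 ± 0.84 for H2-Eb1, 3.56 ± 0.77 for H2-Ab1 and 2.95 ± 0.68 for Cd74. Of the 4, H2-Aa, H2-Ab1 and H2-Eb1 were in the test only through their day 14 levels. None passed the threshold of 0.05 with edgeR's quasi-likelihood test over 908 genes: the adjusted p values were 0.0919, 0.102, 0.122 and 0.136 (n = 3 and 3). With DESeq2, a second count model, all 4 passed, as they did with no filter on low counts. With the mitochondrial set of the libraries as a term in the edgeR fit, added after the data were seen, H2-Aa passed (adjusted p 0.0412) and no other gene did. Over the settings tried, the log2 difference of H2-Aa ran from 2.90 to 4.69 and its adjusted p from 1.4e-05 to 0.601. Against stroke day 2, day 14 was higher by 4.69 ± 0.94 for H2-Aa, 4.88 ± 1.08 for H2-Eb1 and 3.72 ± 0.84 for Cd74 on the log2 scale (adjusted p 0.0916, 0.140 and 0.140 in the same edgeR fit). For H2-Ab1, 92 counts at day 14 stood against 1 at day 2, with a ratio per total of 178 and a counting interval of 31.2 to 7125 (95%, exact, counting error only). Without day 2 library 4 this ratio was 25.5, without day 14 library 3 it was 86.7, without day 14 library 1 390.3, and without day 2 library 1, which held that count, at least 50.99 (floor of 3 counts over the group).

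Small libraries outside the fit did not all follow this order. Stroke day 2 library 3, with 7 BAM1 cells and a BAM1 total 56.6% below the rounded-up values, held 2688 CPM of H2-Aa (6.90 counts) and 9718 CPM of Cd74. Stroke day 14 library 2, with 6 cells, held 0 and 1771 CPM, and sham library 4, with 8 cells, 666 and 1334 CPM. With these libraries in the fit (at least 5 cells, 4 libraries in each group), the H2-Aa difference of day 14 over sham was 3.63 with an adjusted p of 0.601 (edgeR), and over day 2 it was 2.77. This setting was added after the data were seen. Sham library 4 and day 14 library 2 lay 67.9% and 18.8% below their rounded-up values. Of the fitted libraries, day 14 libraries 3 and 4 lay 36.0% and 46.4% below theirs, and the others 2.01% to 10.6%. The part of this gap in the class II values was not tested.

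Few cells carried these genes. Counts of H2-Aa, H2-Ab1 or H2-Eb1 were held by 14 of 31, 7 of 18 and 2 of 18 BAM1 cells in day 14 libraries 1, 3 and 4, and by 5 of 53, 15 of 141 and 6 of 65 cells in sham libraries 1, 2 and 3. Day 14 library 4 thus rests on 2 cells, and its share of such cells was near those of sham, without adjustment for depth (a median of 254 counts per cell against 499.8 to 885). Day 14 library 1, with the highest share, was deeper than these sham libraries, at a median of 1312 counts per cell. Its share is not adjusted for depth either. H2-Aa, H2-Ab1 and H2-Eb1 together were at 1672, 11326 and 3300.1 CPM in day 14 libraries 1, 3 and 4, and at 1141, 7841 and 1508 CPM once the highest cell of each was left out, which leaves 1 such cell in library 4. The sham libraries went from 211, 292 and 561 to 78.99, 137 and 270.1 CPM. Day 14 libraries stayed above sham in both counts. Markers of other cells that bear MHC class II were present in some of these libraries. The summed monocyte list was at 16.5, 77.5 and 0 CPM in sham libraries 1, 2 and 3 and 63.2, 254 and 0 in day 14 libraries 1, 3 and 4. In the same order, the dendritic cell list was at 38.7, 57.9 and 54.7 and 165, 0 and 0 CPM. The B cell list was at 57.7, 7.90 and 26.9 and 23.7, 43.3 and 0 CPM. All 3 lists overlap between the groups, with the highest monocyte value in day 14 library 3, the highest for class II too. The immunoglobulin gene Ighm reached 253 CPM in 2 of these day 14 libraries and in 0 of the fitted sham and day 2 libraries. It passed the filter only through day 14. BAM2, with H2-Ab1 at 15699 CPM over the young libraries, was 23.4%, 29.1% and 35.6% of BAM cells in sham libraries 1, 2 and 3. It was 53.2%, 44.2% and 56.9% in day 14 libraries 1, 3 and 4, above those sham values. The part of such cells, BAM2 among them, in the class II values was not tested. Within the libraries of low mitochondrial percent, H2-Aa was at 57.7 CPM in sham (n = 1) and 781 at day 14 (n = 1). Within those of high percent it was at 158 (n = 2) and 2746 CPM (n = 2). In microglia of the same libraries, which hold little MHC class II, H2-Aa was at 0 to 7.45 CPM in sham, 0 to 154 at day 2 and 0 to 54.98 at day 14, and the part of free RNA in the BAM1 values was not tested.

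The rest of the pathway was thinly measured. Of 11 genes in the MHC class II list, 6 were tested, 3 of them only through day 14, and the others were Cd74, Ctss and the costimulatory ligand Cd86. The protease Ctss, which trims the invariant chain, was at 2918, 2288 and 1699 CPM in sham and 2945, 4495 and 3429 at day 14, with a log2 difference of 0.62 ± 0.34 (adjusted p 0.854, edgeR). Cd86 was at 286, 155 and 354 CPM in sham and 260.0, 180.2 and 417 at day 14 (0.10 ± 0.49, adjusted p 0.994). The transactivator Ciita had 1 count in the sham libraries of the fit and 0 in the stroke libraries, so its level was not detectable at this depth. The peptide editor gene H2-DMa was at 115, 48.5 and 53.4 CPM in sham and 41.8, 347 and 0 at day 14, and its partner H2-DMb1 at 76.8, 60.2 and 27.1 and 65.97, 416 and 0 CPM. The groups overlap for both, on 6.90 and 8.90 counts at day 14, too few to be tested. Even at day 14, BAM1 stayed below BAM2 of the same libraries, where H2-Aa was at 10814, 12204 and 10956 CPM.

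**Figure D3:**
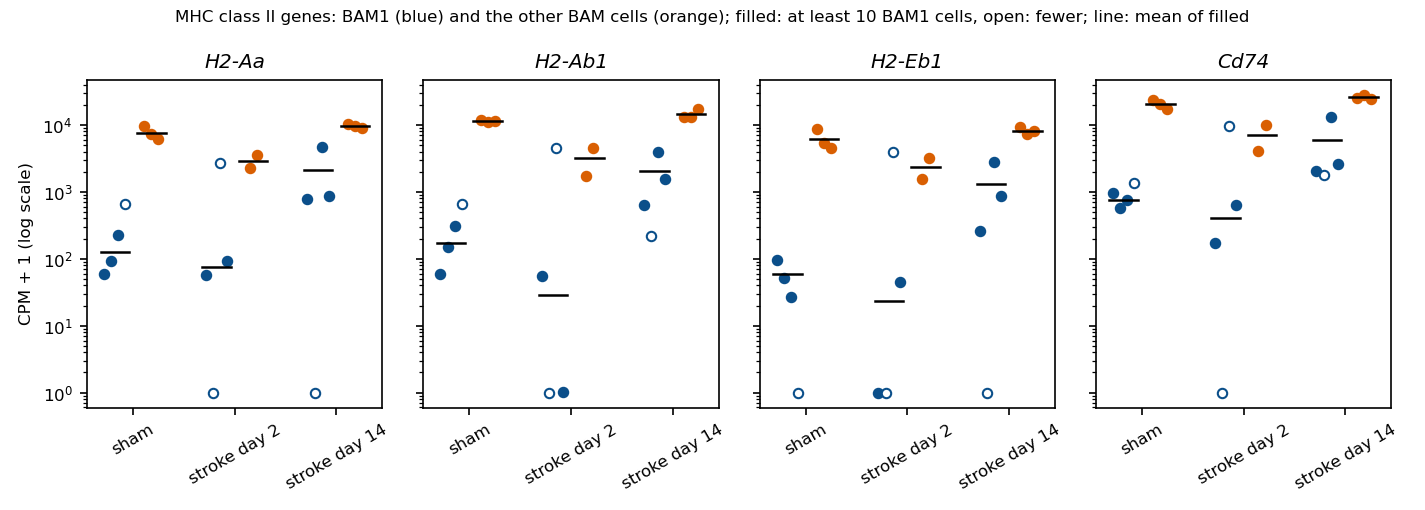
MHC class II genes in the young libraries (CPM + 1, log scale). Blue points are BAM1 and orange points the other BAM cells of the same library, filled where the library holds at least 10 BAM1 cells and open where it holds fewer; lines are means of the filled points. BAM1 at stroke day 14 lies above sham for all 4 genes in the filled libraries, while 1 open day 2 library is as high.

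The day 14 difference of these genes was larger in BAM1 than in the other BAM cells pooled. The other BAM cells of the same 8 libraries held H2-Aa at 9717, 7276 and 6092 CPM in sham and 10225, 9609 and 9086 CPM at day 14, which overlap. Within that pool, BAM2 held H2-Ab1 at 17496.5, 16423 and 15282 CPM in sham and 13997, 16622 and 20466 at day 14. BAM3, where at least 5 cells were held, was at 215, 876 and 565 in sham libraries 1, 2 and 3. It was at 614 and 2232 in day 14 libraries 2 and 3. BAM5 was at 466 and 945 in sham libraries 2 and 3 and at 1809 in day 14 library 4. Neither BAM3 nor BAM5 was tested alone. A model with the library as a block tested whether the day 14 over sham difference of BAM1 equals that of the other BAM cells, over 1116 genes. It called 4 genes (0.358% of those tested), all higher in BAM1 and all of MHC class II. The difference between the 2 responses was 3.58 ± 0.59 for H2-Aa, 3.59 ± 0.70 for H2-Eb1, 3.02 ± 0.58 for H2-Ab1 and 2.20 ± 0.46 for Cd74 on the log2 scale, with edgeR adjusted p of 0.00167, 0.00772, 0.00772 and 0.0140. The same 4 were called against BAM2 alone, which was added after the data were seen. No gene was called without sham library 1 or without sham library 2, and 1 gene (H2-Aa) without day 14 library 3 or with DESeq2. The subtypes were cut from expression that includes these genes, and the part of that cut in the result was not tested.

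At stroke day 2 no gene of BAM1 passed the test against sham. With edgeR, 0 of 908 genes were called (0%), 66 had an unadjusted p under 0.05 (33 higher and 33 lower, 3.63% each), and DESeq2 also called 0. The fit had 2 day 2 libraries, of 11 and 78 BAM1 cells. Saa3, an acute phase serum amyloid, was at 291, 106 and 109 CPM in sham and 404 and 2468 in day 2 libraries 1 and 4, a log2 difference of 3.16 ± 0.71 (adjusted p 0.544). Both lay above sham, library 4 by far the most, and the other 2 day 2 libraries, of 6 and 7 cells, were at 0. Over the settings tried, the log2 difference of Saa3 ran from 0.450 to 3.94. Without day 2 library 1, which leaves library 4 as the lone day 2 sample, assumed to vary like the other groups, Saa3 and Spp1 were called with edgeR. Spp1, the matrix protein osteopontin, was at 19.3, 142 and 54.8 CPM in sham and 336 and 1181 at day 2, with 14416 and 271 CPM in the small libraries 2 and 3. Its log2 difference was 3.24 ± 0.67 (edgeR adjusted p 0.343). At day 14 it was at 681, 867 and 216 CPM, above all sham libraries (2.92 ± 0.68, adjusted p 0.136). Microglia of the same libraries held Spp1 at 0 to 4.66 CPM in sham, 8392 to 17133 at day 2 and 2899.7 to 17328 at day 14 over 4 libraries each, and the part of free RNA in the BAM1 value was not tested.

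The other BAM1 genes nearest to the threshold at day 2 belonged to several classes. The interferon-induced Ifi27l2a was at 504, 391 and 709 CPM in sham and 887 and 2307 at day 2, a log2 difference of 1.61 ± 0.47. Ccl8, a chemokine for monocytes and T cells, was at 155, 142 and 411 CPM in sham and 429.5 and 1433 at day 2 (2.12 ± 0.71). Atp6v0d1, a subunit of the proton pump that acidifies lysosomes, was at 95.7, 57.2 and 54.6 CPM in sham and 419.7 and 300.4 at day 2 (2.22 ± 0.58). For each of them both day 2 libraries lay above all sham libraries. The small GTPase Rhog did the same, with 152, 179 and 80.3 CPM in sham and 276 and 432 at day 2 (1.35 ± 0.44). Below sham lay ceruloplasmin Cp, the copper ferroxidase, with 697, 866 and 764 CPM in sham and 133 and 336 at day 2 (-1.58 ± 0.46). Mertk, a receptor for the uptake of dying cells, was at 275, 316 and 434 CPM in sham and 110.2 and 73.2 at day 2 (-2.09 ± 0.61). Prrc2c, Erbin and Tpm3-rs7 also lay below sham, with log2 differences of -1.57, -2.18 and -2.59. None of these 9 passed, with an edgeR adjusted p of 0.639 for each. Non-overlap of 2 day 2 with 3 sham libraries is common here: 15.9% of all tested genes lay wholly above and 12.4% wholly below. Among the 9, Atp6v0d1 would not have passed the filter without day 2, nor Cp, Prrc2c, Erbin and Tpm3-rs7 without sham. This fixed their direction in part.

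At day 14, Ccl8 stood about as near to the threshold as the class II genes. In BAM1 it was at 3285, 2425 and 568 CPM in day 14 libraries 1, 3 and 4, above the sham values of 155, 142 and 411, with a log2 difference of 3.36 ± 0.68 (edgeR adjusted p 0.104). Within the libraries of low mitochondrial percent it was at 155 CPM in sham (n = 1) and 3285 at day 14 (n = 1), and within those of high percent at 276 (n = 2) and 1497 (n = 2). Microglia of these libraries held at most 37.3 CPM of it. It passed with DESeq2 and with no filter on low counts. Against sham, edgeR called 0 of 908 genes (0%), with 58 at an unadjusted p under 0.05 (33 higher, 3.63%, and 25 lower, 2.75%), and DESeq2 called 6: Ccl8, Cd74, H2-Aa, H2-Ab1, H2-Eb1 and Spp1. Ifi27l2a was at 1533, 1754 and 1324 CPM at day 14 (log2 difference 1.56 ± 0.45), all above sham. Nrros, which holds latent TGF-beta at the cell surface, was at 153, 76.3 and 109 in sham and 380.2, 619 and 238 CPM at day 14 (2.00 ± 0.56), also above. The endosomal exchange factor Rabgef1 was at 17.9, 14.4 and 24.3 CPM in sham and 262, 267 and 238 at day 14 (3.57 ± 0.91), on 4 and 16 counts. The nuclear receptor Nr4a1 was at 269, 85.2 and 157 CPM in sham and 1398, 659 and 247 at day 14 (2.49 ± 0.74), and its groups overlap. The edgeR adjusted p of Ifi27l2a, Nrros, Rabgef1 and Nr4a1 was 0.193 to 0.346.

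Below sham at day 14 in BAM1 lay Sult1a1, a sulfotransferase, and again Cp. Sult1a1 was at 518, 687 and 406 CPM in sham and 144, 47.4 and 159 at day 14 (log2 difference -2.06 ± 0.48, edgeR adjusted p 0.136). Cp was at 214, 153 and 232 CPM at day 14 (-2.00 ± 0.48, adjusted p 0.147), under all 3 sham libraries. Lyve1 was at 2368, 1800.1 and 712 CPM in sham, 877 and 1588 at day 2 and 503, 279.6 and 565 at day 14, with a log2 difference of -1.89 ± 0.54 for day 14 over sham (adjusted p 0.346). The lectin receptor Cd209f was at 1048, 369 and 438 in sham and 130.5, 0 and 111 CPM at day 14 (-2.63 ± 0.82), and Mia2, a factor of secretory export, at 341, 435 and 561 in sham and 112, 0 and 320.2 at day 14 (-1.88 ± 0.61), both with an adjusted p of 0.410. All 5 lay below sham without overlap, as did 6.39% of all tested genes. Cp and Cd209f passed the filter only through sham, which fixed their direction in part. The BAM1 cells of day 14 libraries 3 and 4 held only 14719 and 5184 counts over all genes. Low CPM values there rest on few counts.

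**Figure D4:**
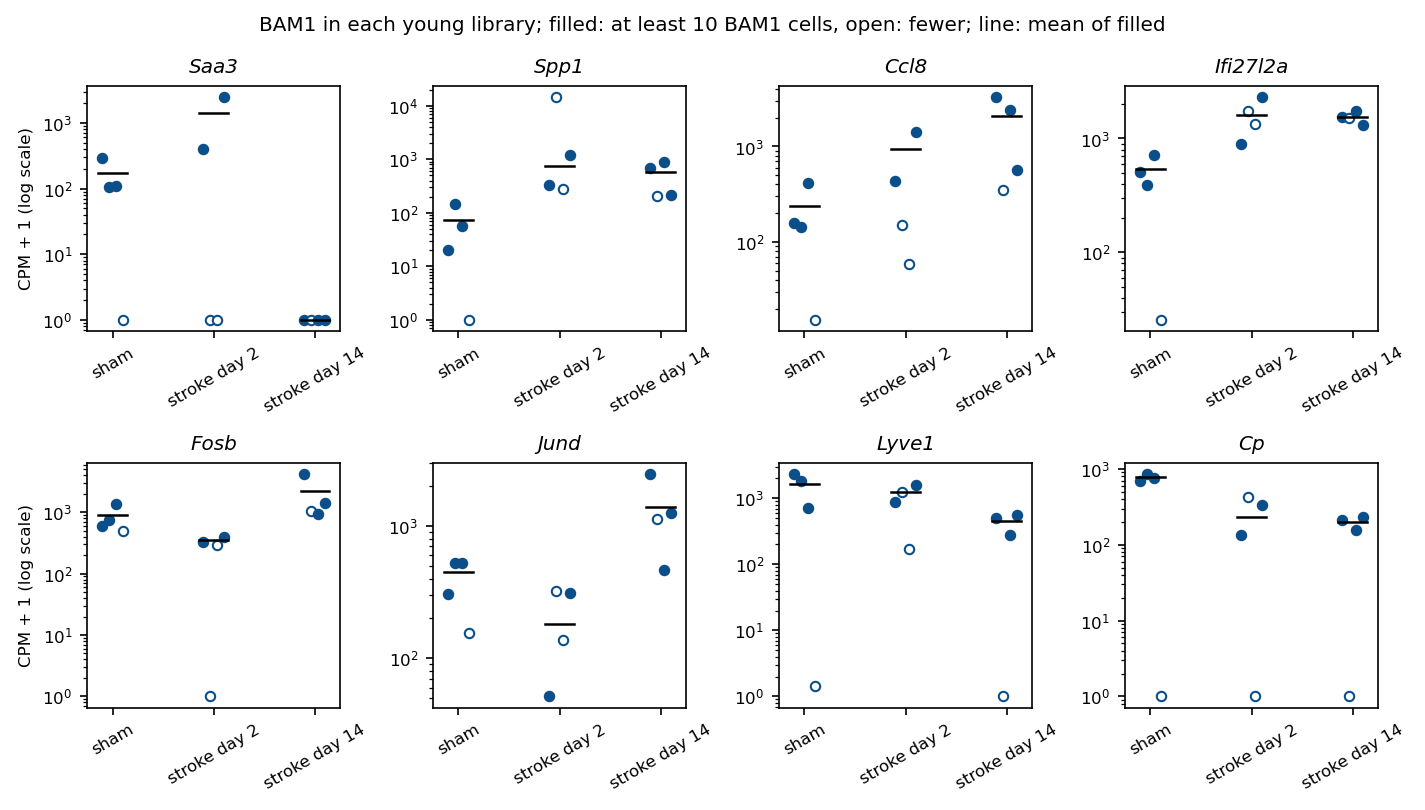
Levels of 8 genes in BAM1 in the young libraries (CPM + 1, log scale; filled points hold at least 10 BAM1 cells, open points fewer, lines are means of the filled points). Saa3 is at 0 in all 4 day 14 libraries, Ccl8 and Ifi27l2a lie above sham at both stroke times in the filled libraries, and Cp lies below.

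Between the stroke times, Saa3 stood at its highest at day 2 and at 0 at day 14. Saa3 had 260 counts in the fitted day 2 libraries and 0 in the fitted day 14 libraries, so it was at least 44.7-fold lower at day 14 (floor of 3 counts over the group), and at least 3.17-fold lower than in sham. Library 4 held 253 of the day 2 counts, and without it the first bound was 8.41-fold. Without day 14 library 1 the bounds were 14.4-fold against day 2 and 1.02-fold against sham. The edgeR adjusted p was 0.0856 against day 2 and 0.524 against sham. Again edgeR called 0 of 908 genes (0%), with 70 at an unadjusted p under 0.05 (44 higher, 4.85%, and 26 lower, 2.86%). DESeq2 called 5, namely Saa3, Cd74, H2-Aa, H2-Ab1 and H2-Eb1. The chemokine Ccl9 was at 394 and 1120.4 CPM at day 2 and 69.5, 288 and 0 at day 14, a log2 difference of -2.72 ± 0.71. The galectin Lgals1 was at 2174 and 2002 CPM at day 2 and 424, 742 and 63.3 at day 14 (-2.13 ± 0.57). For Ppib, a chaperone of the secretory path, the values were 614 and 382 CPM at day 2 and 113, 148 and 239 at day 14 (-1.69 ± 0.50). The respiratory chain subunit Cox8a was at 847 and 475 CPM at day 2 and 160.0, 301 and 188 at day 14 (-1.53 ± 0.49). For these 4 the groups did not overlap, as for 12.4% of all tested genes lower at day 14, and the edgeR adjusted p was 0.304 to 0.443. Ppib passed the filter only through day 2, which fixed its direction in part. Above its day 2 values lay the chromatin remodeller Chd4, at 91.1 and 111 CPM at day 2 and 672, 212 and 392 at day 14 (2.16 ± 0.59, adjusted p 0.304). Rabgef1 rested on 16 counts at day 14 against 2 at day 2, with a ratio per total of 15.5 and a counting interval of 3.65 to 139. Without day 2 library 4, which held both day 2 counts, it was at least 1.48-fold higher at day 14.

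Early response genes had positive differences at day 14 in BAM1, with none past the test. This list holds AP-1 subunits and other genes induced within minutes of a stimulus, and cell dissociation is known to induce them. All 16 members were tested, none through 1 group alone. Against sham, all 16 had positive log2 differences at day 14, with a median of 1.08 beside -0.02 over all genes, and 7 had an unadjusted p under 0.05, as did 3.63% of all tested genes in that direction. Fos was at 1928, 2622 and 2668 CPM in sham, 1298 and 2574 at day 2 and 8069, 5860.4 and 3309 at day 14. Its partner Jund was at 306, 522 and 523 CPM in sham, 50.6 and 313 at day 2 and 2476, 460.3 and 1256 at day 14. Fosb, a relative of Fos, was at 599, 739 and 1351 CPM in sham, 327 and 389 at day 2 and 4267, 952 and 1413 at day 14. Day 14 lay above day 2 for each, and above sham without overlap only for Fos among the 3. The log2 differences of day 14 over day 2 were 1.60 ± 0.49 for Fos, 2.74 ± 0.75 for Jund, 2.67 ± 0.71 for Fosb and 2.27 ± 0.67 for Klf4, with edgeR adjusted p of 0.304 to 0.412. Of the 16, 11 lay above day 2 without overlap, where 8.92% of all genes did. At day 2 the list's median against sham was -0.44, with 13 of 16 below 0.

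Microglia of the same libraries also varied in these genes. Fos in microglia was at 622, 1894 and 2814 CPM in sham libraries 1, 2 and 3, 136 and 724 in day 2 libraries 1 and 4, and 4015, 880.5 and 1421 in day 14 libraries 1, 3 and 4. Jund in microglia was at 279, 394 and 485 CPM in sham, 60.03 and 74.96 at day 2 and 848, 122 and 316 at day 14. In microglia, unlike in BAM1, day 14 and sham overlap for Fos. In microglia of these libraries day 14 lay above day 2 for Fos, Jund and Fosb, as in BAM1, while the stroke times overlapped for Jun. Day 14 library 1 was the highest day 14 library for Fos and Jund in both cell types. The part of cell preparation in the BAM1 values was not tested. Within the libraries of low mitochondrial percent, Fos in BAM1 was at 1928 CPM in sham and 8069 at day 14, and within those of high percent at 2645 and 4585. Not all members of the list rose in both sets. Within the libraries of high percent, Egr1 was at 934 CPM in sham and 617 at day 14. Klf2 was at 630 and 508 there, and Klf4 at 355 and 260. The other members were higher at day 14 in that set, and all were higher in the set of low percent (n = 1 library each).

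No border macrophage identity gene passed. Of 18 genes in this list 15 were tested, Cd209f and Colec12 only through sham. Of the other 13, 10 had negative log2 differences at each stroke time against sham, with medians of -0.34 at day 2 and -0.37 at day 14, beside 0.03 and -0.02 over the 629 genes that no single group carried through the filter. The 2 comparisons share the sham libraries. Mrc1 was at 5490.2, 7226 and 7938 CPM in sham, 4140.2 and 3427 at day 2 and 3999, 6476 and 5320.1 at day 14, below sham without overlap at day 2 only (log2 difference -0.89 ± 0.35, edgeR adjusted p 0.639). Cd163, which takes up haemoglobin with haptoglobin, was at 1960.5, 694 and 876 CPM in sham, 431 and 634 at day 2 and 776, 855 and 158 at day 14, also below sham without overlap at day 2 only. Pf4 was at 5222, 4162 and 4424 CPM in sham, 4386 and 5091 at day 2 and 3765, 9170.1 and 3055 at day 14, which overlap, with log2 differences of 0.01 ± 0.45 and 0.21 ± 0.41. The folate receptor Folr2 had a positive difference at day 14, with 563, 349 and 301 CPM in sham, 112 and 497 at day 2 and 709, 535 and 1185 at day 14 (0.86 ± 0.50, adjusted p 0.854, with overlap).

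No interferon gene, cytokine or chemokine passed the main edgeR test, while DESeq2 called Ccl8 at day 14 against sham. Of the 629 genes that no single group carried, 325 had positive differences at day 2 (median 0.03) and 300 at day 14 (median -0.02). Of 18 interferon response genes 6 were tested, and without Slfn5, which failed the filter once sham or day 2 was left out, positive differences were found for 4 of 5 at day 2 (median 1.17) and 5 of 5 at day 14 (median 0.84). Bst2, which tethers budding virus, was at 774, 547 and 381 CPM in sham, 1702 and 1220.4 at day 2 and 1128, 839 and 784 at day 14, above sham at both times. Of 13 cytokines and chemokines tested, and without Cxcl16, which day 14 carried, 9 of 12 were positive at day 2 (median 0.38) and 7 of 12 at day 14 (median 0.46). Besides Ccl8, the monocyte attractant Ccl12 was at 1708, 2119 and 2217 CPM in sham, 3466 and 3594 at day 2 and 1633, 2382 and 1772 at day 14, and both day 2 libraries lay above all others. Ccl6, another macrophage chemokine, was at 386, 441 and 325 CPM in sham, 457 and 1387 at day 2 and 255, 422 and 0 at day 14, again highest at day 2.

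No lipid or lysosome gene passed the main edgeR test, while DESeq2 called Spp1 at day 14 against sham. Of 12 tested, 11 had positive differences at day 2 (median 0.34, beside 0.03 over the 629 genes), with only Spp1 at an unadjusted p under 0.05, and 7 of 12 at day 14 (median 0.08). Apoe, the lipid carrier and the most abundant of them, was at 61279, 56357 and 43906 CPM in sham, 58127 and 57062 at day 2 and 54809.5, 66412 and 64581 at day 14, which overlap. The lysosomal protease Ctsd was at 1738, 1183 and 1213 CPM in sham, 2192 and 2577 at day 2 and 2087, 1745 and 2457 at day 14, above sham at both times (0.76 ± 0.36 and 0.58 ± 0.34, adjusted p 0.639 and 0.854). No gene was called in complement (8 tested), iron and antioxidant (9), heat shock (7), motility (5), glycolysis (3) and uptake and growth factor genes (3). Over those that no single group carried, the medians of these lists ran from -0.44 to 0.49 at day 2 and from -0.14 to 0.12 at day 14, with no glycolysis gene left. Of 14 proliferation genes none was measured well enough to test.

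**Figure D5:**
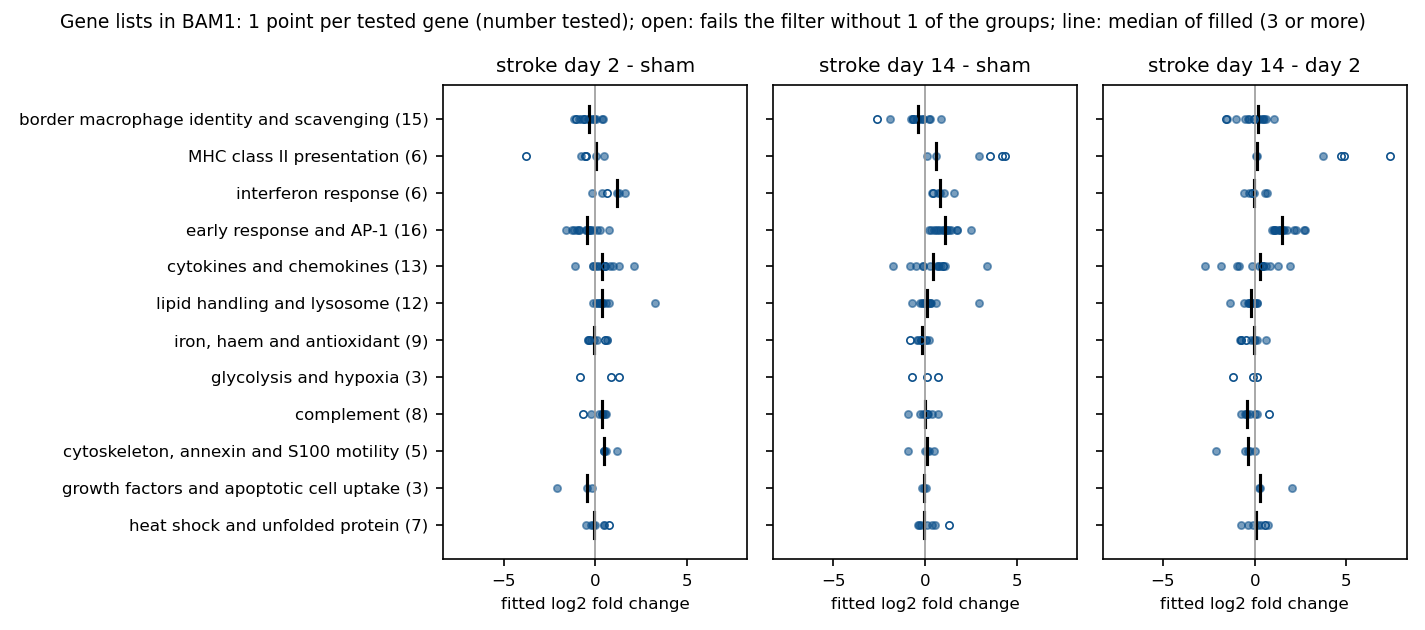
Fitted log2 fold changes of the tested genes of 12 lists in BAM1 for 3 comparisons (1 point per gene, number tested in brackets; open points would not pass the filter on low counts without 1 of the groups; black line at the median of the filled points where there are 3 or more, grey line at 0). All 16 early response genes lie to the right in both day 14 comparisons, with a median of 1.08 against sham, and 3 MHC class II points are open; no gene passed the edgeR test.

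At day 2, BAM1 and the other BAM cells differed in their response for 19 of 1116 genes (1.7%), 6 higher (0.538%) and 13 lower (1.16%) in BAM1. Of the 13 lower, 3 belong to the identity list (Folr2, Lyve1 and Pf4) and 5 to the lipid and lysosome list (Cd63, Ctsb, Ctsl, Plin2 and Spp1). Ednrb, the endothelin B receptor, differed by -3.40 ± 0.67 on the log2 scale, the chaperone Pdia4 by -3.24 ± 0.62, Spp1 by -3.08 ± 0.76, Folr2 by -2.78 ± 0.66 and the ficolin Fcna by -2.73 ± 0.63 (edgeR adjusted p 0.0117 to 0.0294). Ednrb in BAM1 was at 309.6, 309 and 657 CPM in sham and 158 and 283 at day 2, while the other BAM cells held 26.6, 76.5 and 27.5 CPM in sham and 288 and 424 at day 2. Day 2 thus lay below sham in BAM1 and above it in the other BAM cells. The immunoglobulin gene Ighm was among the 19 and is not ranked here, since antigen receptor genes were left out. Of the 6 higher, those with the largest differences among the genes kept were Fxyd5 (2.27 ± 0.53), the inflammasome sensor Nlrp3 (2.13 ± 0.54), Tmem176a (1.85 ± 0.43), Cd52 (1.85 ± 0.49) and the chemokine Ccl4 (1.81 ± 0.41), with edgeR adjusted p of 0.0229 to 0.0412. For Ccl4, BAM1 was at 305, 482 and 870.1 CPM in sham and 218 and 661 at day 2, and the other BAM cells were at 2013, 2198 and 3522 CPM in sham and 739 and 756 at day 2.

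The make-up of the other BAM cells differed along with this result. BAM4 was 0% to 3.74% of BAM cells in the 3 fitted sham libraries and 22.4% and 17.6% in the 2 fitted day 2 libraries. Against BAM2 alone, 0 of 891 genes were called by edgeR and 51 had an unadjusted p under 0.05, a setting added after the data were seen that also changes which cells and genes are compared. There the log2 difference was -0.32 for Spp1, -0.02 for Folr2, -0.83 for Fcna, 1.45 for Fxyd5, 0.44 for Nlrp3, 0.65 for Tmem176a, 0.88 for Cd52 and 0.51 for Ccl4, and Ednrb and Pdia4 were not among the genes tested. The part of the make-up in the result was not tested. DESeq2 called 0, and no gene was called without sham library 2 or without sham library 3. The count was 6 without sham library 1, 40 without day 2 library 1 and 4 without day 2 library 4.

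In aged mice, BAM1 was not tested under the planned minimum, since only 1 sham library held at least 10 cells. The tables of aged and young mice list different numbers of genes (27514 and 19704), so the ages were not fitted together. The female sham library (42 cells) held Mrc1 at 6629.8 and Pf4 at 5819 CPM, and the stroke day 2 libraries (13 cells male, 22 cells female) held 6523 and 5797 CPM of Mrc1. H2-Aa was at 686 CPM in that sham library, 0 and 53.6 in the 2 stroke day 2 libraries and 547 in the stroke day 14 library. Spp1 was at 0 in that sham library and at day 14, and at 236 and 6352 CPM at day 2. The male sham library, with 5 BAM1 cells of which 2 held counts of other cell types' markers, had 1499 CPM of Mrc1.

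The BAM1 cells of the aged stroke day 14 library stood apart from BAM1 of the other aged libraries. The scavenger receptor Marco was at 3896 CPM and Cd5l, a secreted protein of tissue macrophages known from liver and spleen, at 1948 CPM, and both were at 0 in BAM1 of the other 4 aged libraries. Of the 24 cells, 18 held counts of Marco and 18 of Cd5l, so the level came from most of them. Fcna was at 4413 and Saa3 at 6788 CPM, against at most 1349 and 222 in the others. Apoe was at 2257 CPM where the others held 22109 to 54435, and Cbr2 and Cd63 were at 72.99 and 180.4 CPM. Mrc1 (1741 CPM) and Pf4 (2656) were still present. The other BAM cells of that library also held Marco (4997 CPM) and little Apoe (690.1), while its microglia held Marco at 5.23 and Apoe at 30982 CPM. These genes were chosen after their values were seen, and 1 library has no replicate check.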

How the data were processed

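Brain cells of 18 Drop-seq libraries were used. The deposited tables hold expected counts per gene and cell, not whole numbers, which sum to the deposited total per cell. The authors also deposited a count of detected genes, the mitochondrial percent and cell type names at 2 levels per cell. Per the submitters' processing notes, mm10 and Seurat were used; the step that made the counts fractional is not given in the sources used here.

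Counts of BAM1 cells were summed per library, rounded and tested with edgeR 4.0.16 in R 4.3.3 (quasi-likelihood test, two-sided, TMM scaling, filterByExpr, Benjamini-Hochberg adjustment over all genes tested, threshold 0.05), with the 3 young groups in 1 fit. The least number of BAM1 cells was 20 per library by design, and 10 where a group would keep fewer than 2 libraries, which applied. DESeq2 1.42.0 was the second model. In a difference of responses, BAM1 and the other BAM cells were summed separately with the library as a block. Shares were compared by exact permutation. The p values measure the spread between libraries, each a pool of animals, and intervals cover counting error only. Tests on simulated counts (941 genes, day 2 against sham) recovered 78.6% of 4-fold and 94.7% of 8-fold changes among the changed genes that passed the filter. Of 93 calls, 6 were false. The spread between simulated libraries was a set value, not estimated from these data. These percents therefore do not say what changes the real fits could have missed. Scrublet marked 0.0452% of cells and no BAM1 cell, so it was treated as not working and doublets stayed in.

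Members and gene lists were chosen with earlier results of these data known. Named per comparison and direction were the called genes of at least 50 CPM, filled up to 5 with the smallest unadjusted p, and members of the lists; left out were predicted, mitochondrial, ribosomal, haemoglobin and antigen receptor genes and those that another cell type holds at over 10 times the BAM1 level. Alternatives were another scaling, DESeq2, no filter, counts rounded up, the replicate block, only the compared groups, cell filters and leaving out each library; 5 or 20 cells, the mitochondrial set, BAM2 alone and count ratios without 1 library were added after the data were seen.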

Additional observations from a re-analysis of the deposited data

Results flagged for a closer look

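The BAM1 share of BAM cells in sham library 4 was 15.4%, far below the other 3 sham libraries by Dixon's test for an outlying value (gap over range 0.842, critical value 0.829). The BAM1 share of all brain cells in stroke day 2 library 4 was 1.74%, far above the other 3 day 2 libraries (0.916). Chance gives such a value in about 1 in 20 groups.

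The stroke response of BAM1 differed from that of the other BAM cells, by the main edgeR test of that difference, for these genes. At day 2 the log2 difference was 2.27 for Fxyd5, 2.13 for Nlrp3, 1.85 for Tmem176a, 1.85 for Cd52 and 1.81 for Ccl4. It was -3.40 for Ednrb, -3.24 for Pdia4, -3.08 for Spp1, -2.78 for Folr2 and -2.73 for Fcna. At day 14 it was 3.59 for H2-Eb1, 3.58 for H2-Aa, 3.02 for H2-Ab1 and 2.20 for Cd74. No day 2 gene was called with DESeq2, against BAM2 alone, or without sham library 2 or 3. For day 14, DESeq2 called only H2-Aa, and no gene was called without sham library 1 or 2.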

How the results depend on the processing

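The day 2 fit rests on 2 libraries, and a gene was tested only where it reached 253 CPM in at least 2 fitted libraries. Within BAM1, edgeR called 0 genes in each comparison with library size scaling, counts rounded up or only the compared groups, and with at least 5 cells per library. The cell filters removed no young BAM1 cell, so those fits only repeat the main fit. With no filter it called 2 genes at day 2 (Saa3 and Spp1), 6 at day 14 (the 4 class II genes, Ccl8 and mt-Rnr2) and 5 between the stroke times, with a median over all genes of -0.49 at day 14 against -0.02 with the filter. DESeq2 called 0, 6 and 5 genes. With at least 20 cells, which leaves 1 library in each stroke group, the counts were 2, 6 and 2, and with the mitochondrial set as a term 0, 1 (H2-Aa) and 0. Leaving out 1 library gave 0 to 2 genes at day 2, 0 to 2 at day 14 and 0 to 3 between the stroke times; H2-Aa and H2-Eb1 were called at day 14 without day 14 library 1. With the replicate block, 0 genes were called, and 12, 15 and 23 had an unadjusted p under 0.05. Deviations of same-numbered libraries from their group means had correlations of -0.37 to 0.15. Within groups this small such deviations are tied to each other, so these values cannot decide whether the numbers pair the libraries. With the block, the exact permutation p was 0.375, 0.500 and 0.375 for the share of BAM. Each block holds 1 library of each group, so this test cannot reach 0.05 and could not have called a share. The 19 genes with a different response at day 2 became 0 with DESeq2, 12 with no filter, 8 with counts rounded up, 0 against BAM2 alone and 0 to 40 without 1 library. The 4 genes at day 14 became 1 with DESeq2 and 0 to 5 without 1 library. Leaving out 1 library, the difference in the BAM share ran from -25.01 to -11.6 points at day 2, -14.9 to -3.34 at day 14 and 4.92 to 16.8 between the stroke times. In the share of all cells it ran from -1.61 to -0.683, -1.64 to -0.718 and -0.190 to 0.342 points. Where a count moved, the cause was not tested. Without day 2 library 4, day 14 exceeded day 2 by 16.8 points of the BAM share, and without sham library 4 day 14 differed from sham by -1.64 points of all cells (exact permutation p = 0.0286 each). In each case the library left out had made the groups overlap, and p is the smallest the test can give, without adjustment. The planned test in aged mice was not run, since 1 sham library held enough cells.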
